A study of Mus musculus with 8 samples.

Results

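The RNA of 55 genes of the actin cytoskeleton and of focal adhesions was followed in cardiac mesenchymal stromal cells (cMSCs), the fibroblast-like progenitors of the heart, sorted from aged and young mice. The 55 genes were chosen by name, for what their products do, but with earlier results of these data known. Every array probe that carries one of these names was taken, which gave 135 of the 56605 distinct probes of the array. Aged cMSCs were taken as 4 pools from male C57BL/6 mice of 20 months and young cMSCs as 4 pools from male C57BL/6 mice of 5 months. A pool held 3 mice by the labels and the methods, but the pool code of aged replicate 4 spells out only 2. No animal received a treatment and no allele was altered by the labels. The cells were sorted straight from digested ventricles as Sca-1+ PDGFRα+ CD31- CD45- cells and were not cultured, so that these are RNA levels of native cells. The pools are called replicates 1, 2, 3 and 4 in the aged group and 2, 3, 4 and 5 in the young group, as their labels number them.

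Actin filaments grow at their barbed ends, where Ena/VASP proteins and formins add profilin-bound actin, and branch where WASP and WAVE proteins switch on the Arp2/3 complex. Cofilins and gelsolin cut filaments, capping proteins stop their growth, and myosin II pulls on them, with tropomyosins and caldesmon along their sides. Talins, vinculin, paxillin, zyxin and tensins join filaments to integrins at focal adhesions, and small GTPases such as Rhoa, Rac1 and Cdc42 set the whole machinery through kinases such as ROCK, PAK and LIMK. In fibroblasts of the heart this system carries adhesion, migration and the contraction of scar tissue.

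Among these genes Evl stood far apart, with an aged level of 0.268 times the young level, whereas most of the others held their level. One member rose in aged cMSCs, Pak1, and 2 fell, Evl and Wasf1, out of 55 genes tested. The other 52 did not pass. Over all 20096 gene names tested 2.2% rose and 0.692% fell by the same test, limma on log2 signals with p values adjusted over all 30824 probes kept and a threshold of 0.05. The median change of the 55 members was -0.04 on the log2 scale, against 0.00 for all genes tested, and 45 of the 55 changed by less than 0.25 in either direction.

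Evl encodes the Ena/VASP-like protein, which binds growing filament ends and is recruited to zyxin at focal adhesions and to the leading edge. Evl has 2 probes on the array, both on the plus strand of chromosome 12 (mm9) and both listed by the array files for the same 4 RefSeq transcripts. The brighter of them, named here the 3′ probe, matches chr12:109926666-109926725 and starts at base 2123 of NM_001163394. The other, the upstream probe, matches chr12:109891235-109891294, 35371 bases before the first, and starts at base 766 of NM_007965. The sequences of the probes behind the 3 calls are shown because each call rests on 1 such stretch of the transcript. Bases 31 to 60 are given of the 3′ probe and of the Pak1 and Wasf1 probes, and the whole of the upstream probe of Evl, with the polyadenylation signal AATAAA in capitals where it occurs.
Evl 3′ probe, bases 31 to 60: ccacacaatAATAAActgttcactgtccaa
Evl upstream probe, bases 1 to 60: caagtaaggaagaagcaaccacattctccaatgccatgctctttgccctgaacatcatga
Pak1 probe, bases 31 to 60: tttctttgtgtgtgcttctagcagctgttt
Wasf1 probe, bases 31 to 60: gttttgcttgcctatagaagtttaaatttt
The letters AATAAA, searched on the strand of the transcript, occur in 18 of the 135 member probes and in 9.77% of all 56605 probes, which are 60 bases long at the median, and in the 3′ probe of Evl they start at base 40. The letters are a description of the probe and do not show that a transcript ends there.

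At the 3′ probe, Evl measured 0.46, 0.72, 0.42 and 0.60 in aged replicates 1 to 4, against 2.41, 2.55, 2.49 and 2.34 in young replicates 2 to 5, in log2 signal relative to the 75th percentile of each array. Every aged pool lay below every young pool, with a gap several times the spread within either group. The means were 0.55 ± 0.14 in aged cMSCs and 2.45 ± 0.09 in young cMSCs (SD, n = 4 pools each). Evl thus fell by 1.90 on the log2 scale (SE 0.10, 95% interval -2.12 to -1.68, limma adjusted p = 5.43e-05). Within the 2 rows of the slide, each with 2 aged and 2 young arrays, the difference was -1.92 and -1.88. An exact permutation test over all 70 assignments of the pools, two-sided, gave p = 0.0286, the smallest that 4 pools against 4 allow. In a bulk sample fewer cells that express a gene and less of its RNA per cell cannot be told apart, here and for every gene below.

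The upstream probe of Evl was dim, with a processed signal of 25.6 to 35.9 on the aged arrays and 34.4 to 63.0 on the young arrays, although well above background on all 8. On the normalized log2 scale it measured -3.96, -4.75, -4.02 and -4.31 in aged replicates 1 to 4, against -3.36, -3.83, -3.70 and -3.77 in young replicates 2 to 5. Here too all aged pools lay below all young pools, but the groups nearly met. The difference was -0.60 (SE 0.18, 95% interval -1.02 to -0.18, unadjusted p = 0.011 and adjusted p = 0.164 by limma), -0.34 in the first slide row and -0.85 in the second, and did not pass. With normexp background correction it was -0.27.

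**Figure D1:**
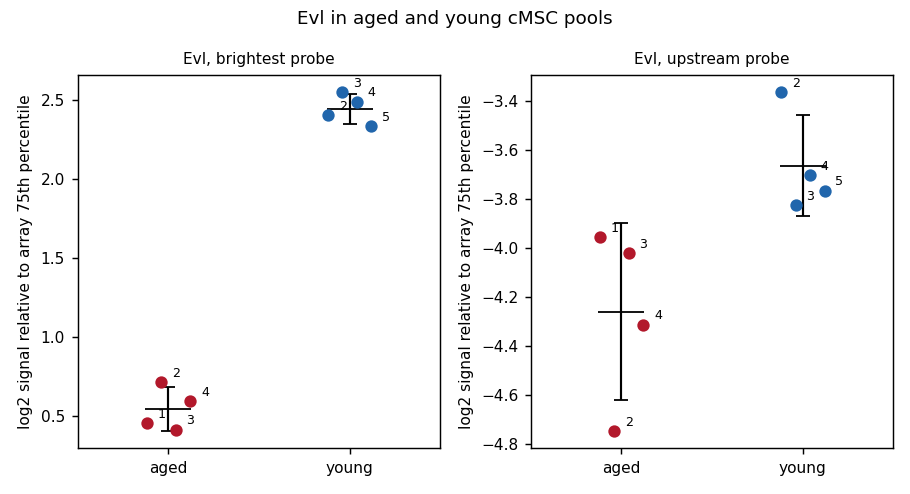
Log2 signal of the Evl 3′ probe (brightest probe, left) and of its upstream probe (right), relative to the 75th percentile of each array, in 4 aged pools (red) and 4 young pools (blue), with replicate numbers beside the points, bars at the mean and whiskers of 1 SD. Aged pools sit between 0.42 and 0.72 at the 3′ probe and young pools between 2.34 and 2.55, whereas the lowest young value and the highest aged value at the upstream probe are -3.83 and -3.96; the vertical scales of the panels differ.

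The 2 probes thus gave differences of unlike size for the same gene. Taken per pool, the upstream probe minus the 3′ probe was -4.81 ± 0.50 in aged cMSCs and -6.11 ± 0.25 in young cMSCs (SD, n = 4 each), and the change at the upstream probe was smaller by 1.30 on the log2 scale (SE 0.24, 95% interval 0.75 to 1.86). All aged pools lay above all young pools in this measure, from -5.47 to -4.41 in aged pools and from -6.38 to -5.77 in young pools. With p values adjusted over the 10728 probe pairs of the array, of which 0.0466% passed, the difference did not pass (unadjusted p = 5.61e-04 and adjusted p = 0.303 by limma), and exact permutation gave p = 0.0286. It passed with normexp background correction (1.58, adjusted p = 0.034 by limma) and in the authors' log2 table (1.47, adjusted p = 0.0071 by limma). The normexp setting adds an offset of 50, which shrinks the changes of dim probes most. The upstream probe, with a processed signal of 25.6 to 63.0, then changed by -0.27 and the 3′ probe by -1.85. The pass under normexp is thus no separate support for the difference. How much of the difference between the probes comes from the low signal of the upstream probe was not tested.

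The other members of the Ena/VASP family are Enah, which encodes Mena, and Vasp. Enah measured -0.55, -0.59, -0.36 and -0.94 in aged replicates 1 to 4, against -0.15, -0.41, -0.30 and -0.11 in young replicates 2 to 5, at the brightest of its 3 kept probes. Aged replicate 3 overlapped the young pools. The difference was -0.37 (95% interval -0.67 to -0.06, adjusted p = 0.248), and -0.39 and -0.18 at its further probes, none of which passed. Vasp differed by 0.08 (95% interval -0.17 to 0.32) at its brightest probe and by 0.19 at the other. Evl and Enah were thus both lower in the aged means and Vasp was not, with only Evl past the threshold.

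Pak1 encodes a kinase that Rac1 and Cdc42 activate and that acts on LIM kinase and on adhesion turnover. Its only kept probe (chr7:105060220-105060279, mm9, plus strand, base 2389 of NM_011035) measured -1.75, -1.77, -1.77 and -1.83 in aged replicates 1 to 4, against -2.22, -2.38, -2.35 and -2.13 in young replicates 2 to 5. The aged pools lay close together and all above the young pools. Pak1 rose by 0.49 (SE 0.08, 95% interval 0.30 to 0.68, adjusted p = 0.020), to 1.40 times its young level, with 0.46 and 0.51 in the 2 slide rows. The call was kept in 6 of the 11 alternatives of processing and when aged replicate 4 or young replicate 5 was left out, and was lost without any 1 of the other 6 pools (adjusted p up to 0.071).

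Wasf1 encodes WAVE1, which carries the signal of Rac to the Arp2/3 complex. Its only probe (chr10:40658226-40658285, mm9, plus strand, base 2400 of NM_031877) measured -2.51, -2.23, -2.57 and -2.62 in aged replicates 1 to 4, against -1.86, -1.81, -1.94 and -2.12 in young replicates 2 to 5. No aged pool reached a young one, though aged replicate 2 and young replicate 5 came close. Wasf1 fell by 0.55 (SE 0.11, 95% interval -0.80 to -0.29, adjusted p = 0.044), and by 0.60 and 0.50 in the 2 slide rows. The call was kept in 3 of 11 alternatives and without aged replicate 2 or young replicate 5, and was lost without any 1 of the other 6 pools (adjusted p up to 0.132).

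**Figure D2:**
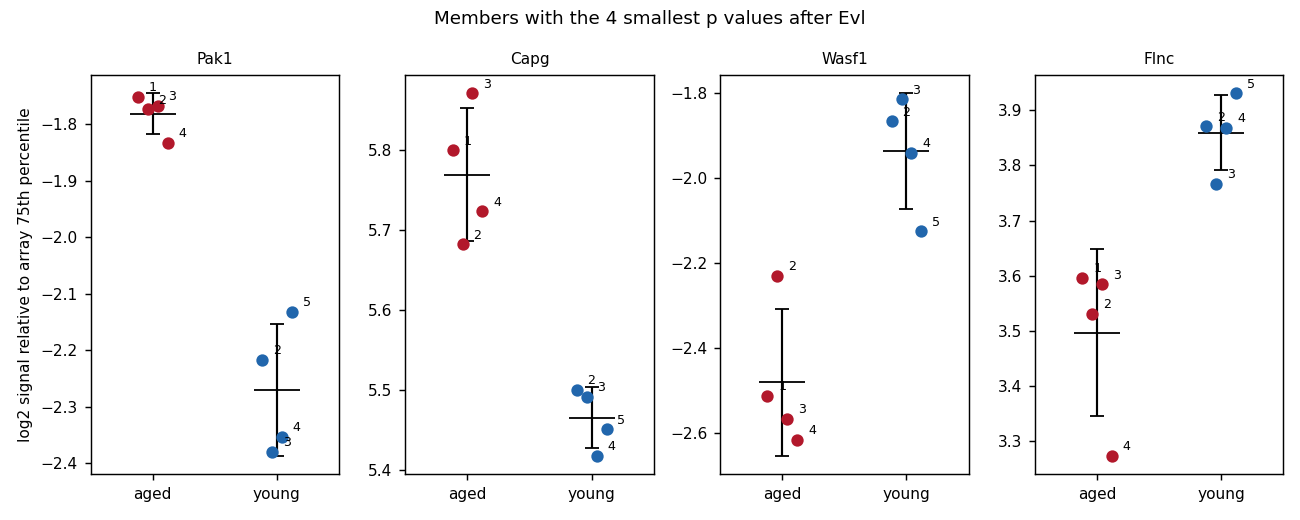
Log2 signal of Pak1, Capg, Wasf1 and Flnc relative to the 75th percentile of each array in 4 aged pools (red) and 4 young pools (blue), with replicate numbers, means and whiskers of 1 SD. The groups do not overlap in any panel, but only Pak1 (adjusted p = 0.020) and Wasf1 (adjusted p = 0.044) passed; each panel has its own vertical scale.

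Among the other activators of Arp2/3, Wasf2 (WAVE2) differed by -0.05 (95% interval -0.22 to 0.12), Wasl (N-WASP) by -0.11, Wasf3 by -0.23 and Was by -0.09. Wasf3 and Was, the WASP of blood cells, were dim, and the interval of Was ran from -0.66 to 0.48. No further probe of these genes passed.

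The formins of the Diaphanous family elongate unbranched filaments downstream of small GTPases. Diap1 measured 4.12, 4.13, 4.11 and 3.93 in aged replicates 1 to 4, against 4.24, 4.06, 4.30 and 4.26 in young replicates 2 to 5. Only young replicate 3 fell among the aged pools, and the difference was -0.14 (95% interval -0.34 to 0.06, adjusted p = 0.589). Diap2 differed by -0.01 (95% interval -0.18 to 0.16), and Diap3, which was near background, by 0.25 with an interval from -0.41 to 0.90. A dim further probe of each of Diap2 and Diap3 did not pass and was well above background on 4 aged but only 3 young arrays, so that it was kept through the aged group alone.

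Profilins bring actin monomers to filament ends and cofilins take filaments apart. Pfn1 measured 1.83, 1.69, 1.89 and 1.74 in aged replicates 1 to 4, against 1.89, 1.89, 1.83 and 1.95 in young replicates 2 to 5. The groups overlapped and differed by -0.10 (95% interval -0.28 to 0.08). Cfl1, with the brightest probe of the group, averaged 3.42 ± 0.08 in aged and 3.45 ± 0.24 in young cMSCs (SD, n = 4 each), a difference of -0.04. Cfl2 differed by -0.08 and Pfn2 by 0.11.

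Of the actins and crosslinkers, Actb measured 8.83, 8.56, 8.86 and 8.85 in aged replicates 1 to 4, against 8.79, 9.03, 8.51 and 9.08 in young replicates 2 to 5. The aged pools lay within the range of the young pools, and the difference was -0.08 (95% interval -0.40 to 0.24). Flnc, which encodes the muscle-enriched filamin C, measured 3.60, 3.53, 3.58 and 3.27 in aged replicates 1 to 4, against 3.87, 3.77, 3.87 and 3.93 in young replicates 2 to 5. All aged pools were below all young pools, but the difference of -0.36 (95% interval -0.58 to -0.15) did not pass (adjusted p = 0.100), and at its second probe it was -0.27. Flna, the filamin of most cells, differed by -0.13, cytoplasmic Actg1 by -0.22, and the α-actinins Actn1 and Actn4 by 0.14 and 0.16.

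The focal adhesion proteins ranged from -0.31 for Tln2 to 0.21 for Tns3 at their brightest probes. Zyx, whose product binds Ena/VASP proteins at adhesions, measured 6.02, 6.00, 5.93 and 5.91 in aged replicates 1 to 4, against 6.08, 6.21, 6.01 and 6.05 in young replicates 2 to 5, and differed by -0.13 (95% interval -0.31 to 0.05), with young replicate 4 among the aged pools. At its second probe, where the groups overlapped too, the difference was -0.38 (95% interval -0.70 to -0.06, adjusted p = 0.251 by limma). Tln2 averaged 0.67 ± 0.21 in aged and 0.98 ± 0.15 in young cMSCs (SD, n = 4 each), with an adjusted p of 0.327. The talin of most cells, Tln1, differed by -0.04 (95% interval -0.22 to 0.15), vinculin (Vcl) by -0.12, paxillin (Pxn) by 0.08 and Tns1 by -0.11.

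Tns3, a tensin that ties integrin tails to actin, had further probes with larger differences than its brightest one. A probe matching ENSMUST00000134823 from its base 3440 (chr11:8445696-8445755, mm9, minus strand) measured -0.39, -0.48, -0.53 and -0.44 in aged replicates 1 to 4, against -1.16, -1.09, -1.19 and -0.64 in young replicates 2 to 5. The groups did not overlap, with young replicate 5 nearest the aged pools. The difference of 0.56 (SE 0.13, unadjusted p = 0.0018) exceeded the thresholds that the methods used, an unadjusted p of 0.01 and a log2 change of 0.5, but not the adjusted one (adjusted p = 0.062). Another probe, at base 5053 of NM_001083587, differed by 0.56 too (adjusted p = 0.162), while the brightest differed by 0.21 with overlapping groups. The changes of these probes against the brightest were larger by 0.35 each, with intervals that include 0.

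Myosin II heavy chains, tropomyosins and caldesmon showed no call among 7 genes. Myh10, the non-muscle myosin IIB heavy chain, measured 3.41, 3.52, 3.34 and 3.07 in aged replicates 1 to 4, against 3.54, 3.51, 3.59 and 3.62 in young replicates 2 to 5. Aged replicate 4 was the lowest and aged replicate 2 overlapped the young pools. The difference was -0.23 (95% interval -0.47 to 0.01), and -0.50 at a probe from base 7723 of NM_175260, where the first starts at base 7611 (adjusted p = 0.116). Tpm3 averaged 6.30 ± 0.24 in aged and 6.20 ± 0.12 in young cMSCs (SD, n = 4 each). Myh9, the IIA heavy chain, differed by 0.15, Tpm1 by -0.25, Tpm2 by -0.09, Tpm4 by -0.08 and Cald1 by 0.02.

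Among the capping and severing proteins and the linkers of actin to the membrane, Capg, which caps barbed ends, measured 5.80, 5.68, 5.87 and 5.72 in aged replicates 1 to 4, against 5.50, 5.49, 5.42 and 5.45 in young replicates 2 to 5. All aged pools were above all young pools, yet the difference of 0.30 (95% interval 0.13 to 0.48) did not pass (adjusted p = 0.086). Gsn, the severing protein gelsolin, measured 9.47, 9.01, 9.49 and 9.70 in aged replicates 1 to 4, against 9.38, 9.71, 9.0 and 9.76 in young replicates 2 to 5, at its brightest probe. There the groups overlapped fully, with a difference of -0.04 (95% interval -0.50 to 0.41). A second Gsn probe, at base 330 of NM_146120 where the first is at base 2527, measured 4.54, 4.54, 4.45 and 4.45 in aged replicates 1 to 4, against 4.80, 4.93, 4.96 and 4.75 in young replicates 2 to 5. These groups did not overlap and differed by -0.37 (adjusted p = 0.058), although the changes of the 2 probes could not be distinguished (-0.32, 95% interval -0.85 to 0.21). Of the membrane linkers, Ezr differed by 0.00, Msn by 0.00 and Rdx by -0.15.

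The small GTPases that set actin in most cells were close to level. Rhoa differed by -0.03 (95% interval -0.22 to 0.17), Rac1 by 0.01 (95% interval -0.15 to 0.18) and Cdc42 by -0.16 (95% interval -0.35 to 0.04). Rhoc, the brightest probe of this group, averaged 6.70 ± 0.23 in aged and 6.72 ± 0.15 in young cMSCs (SD, n = 4 each), and Rhob differed by -0.18. Rnd1, an atypical GTPase that opposes RhoA, measured -2.06, -1.41, -1.75 and -0.48 in aged replicates 1 to 4, against -1.88, -1.87, -1.84 and -2.71 in young replicates 2 to 5. Its aged pools were widely spread, with replicate 4 far above the rest, and the difference of 0.65 had an interval from -0.12 to 1.42. A further probe differed by 0.35 and did not pass, and neither did another that was well above background on all 4 aged but only 2 young arrays. Rnd2 and Rnd3 differed by 0.05 and 0.02, and Rac2, the Rac of blood cells, was dim, at 0.29 with an interval from -0.55 to 1.13.

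The kinases downstream of these GTPases other than Pak1 were Rock1, at -0.06, Rock2, at 0.16, Limk1, at 0.06, Limk2, at 0.20, and Pak3, at 0.12. Rock1 had the brightest probe of this group. Apart from Pak1 none passed, and at the 3 further probes of Rock2 the difference was between -0.14 and -0.07.

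**Figure D3:**
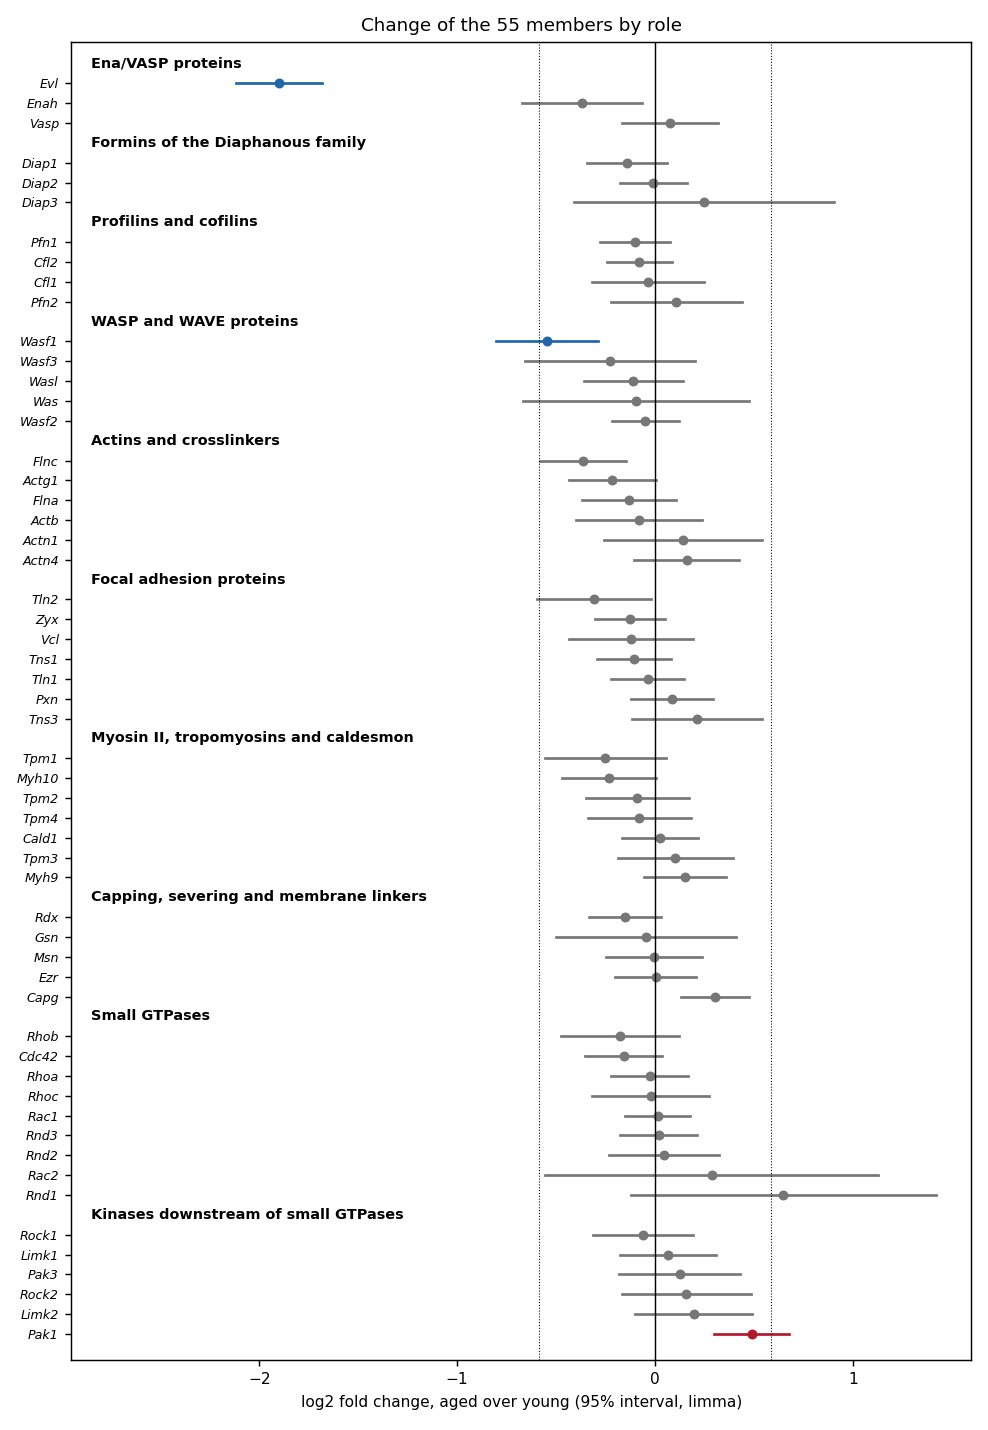
Log2 fold change of aged over young cMSCs for the brightest kept probe of each of the 55 members, by role, with 95% intervals of the limma fit (n = 4 pools each). Coloured points passed an adjusted p of 0.05 (red, higher in aged: Pak1; blue, lower: Evl and Wasf1), grey points did not, and dotted lines mark a 1.5-fold change in either direction, within which the intervals of 45 members lie whole.

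At the brightest probe of each gene, the data bound the change of most members tightly. There the 95% interval lay within 1.5-fold in either direction for 45 of the 55 members, or 81.8%, against 70.6% of all genes tested. The other 10 were Evl, Pak1, Wasf1, Enah, Tln2 and Rnd1, together with the dim Wasf3, Diap3, Rac2 and Was. Of the 45, Tns3 (0.27 to 0.85), Myh10 (-0.81 to -0.19), Zyx, Vasp, Pxn, Diap2, Cald1, Myh9 and Tpm2 had a further kept probe whose interval ran past 1.5-fold. At an unadjusted p under 0.05 stood 2 members with a higher and 5 with a lower level in aged cMSCs, where 8.39% of all genes were higher and 5.51% lower. Aged pools lay all above the young pools for 2 members (Pak1 and Capg) and all below for 4 (Evl, Wasf1, Flnc and Rdx), against 6.68% and 4.06% of all genes. Past the thresholds of the methods were no member with a higher and 2 with a lower level (Evl and Wasf1), where 3.25% and 1.3% of all genes were.

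All 55 members had at least 1 kept probe, and 121 of the 135 probes were kept. A kept probe was well above background in every pool of the aged or of the young group. For 40 members more than 1 probe was kept. None of the 66 further probes passed, and 50 of them had a change of the same sign as the brightest probe of their gene. Among the 66 were 4, of Pxn, Diap2, Diap3 and Rnd1, that were well above background on every aged but not every young array. No probe pair of a member passed. Those at an unadjusted p under 0.05 by limma were the pair of Evl and 1 pair each of Myh10, Actg1 and Diap2. That of Diap2 was with the dim probe that was well above background on only 3 young arrays.

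The pools of a group differed among themselves about as much as in other genes, with a median SD over the members of 0.14 in aged and 0.13 in young cMSCs, against 0.15 and 0.17 over all genes tested. Aged replicate 4 was the lowest aged pool for 29 of the 55 members, or 52.7%, where it was the lowest for 36.1% of all genes. Its median deviation from the mean of the 8 pools was -0.10 over the members, while the other 7 pools lay between -0.02 and 0.05. By role, its median lay at -0.25 for myosin II, tropomyosins and caldesmon and at -0.24 for actins and crosslinkers. It was -0.21 for the formins and -0.16 for focal adhesion proteins. For the kinases it was 0.12, and for the other 4 roles between -0.09 and -0.01. For the 3 Ena/VASP genes it was -0.52, which is the value of Enah alone, whereas Evl and Vasp were not lowest in this pool. Deviations from the mean of all 8 pools also hold any difference between the groups. Without aged replicate 4 the median change of the members was 0.00 instead of -0.04.

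**Figure D4:**
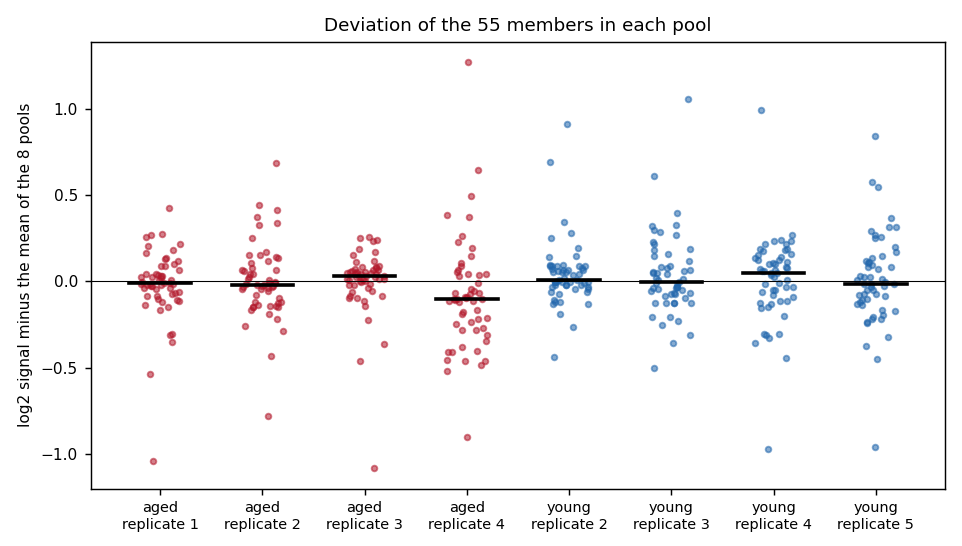
Log2 signal of each of the 55 members in each pool minus its mean over the 8 pools, with aged pools in red and young pools in blue; each point is a member and each black bar the median. The median of aged replicate 4 lies at -0.10, below those of the other pools.

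Markers of other cell types also moved between the groups, and their part in the results above was not tested. Pdgfra and Ly6a, the genes of the sorting antigens PDGFRα and Sca-1, and the other cMSC markers were all kept, and none of the 10 passed. Of these, Ly6a differed by 0.67 (unadjusted p = 0.0016 and adjusted p = 0.058 by limma) and Thy1 by -0.71 (unadjusted p = 0.0014 and adjusted p = 0.053), both without overlap between the groups and past the thresholds of the methods. Col1a1, Col1a2 and Col3a1 differed by -0.38, -0.36 and -0.38, also without overlap (adjusted p = 0.111, 0.128 and 0.141 by limma). In the remaining cMSC markers the groups overlapped. Of the leukocyte markers 17 of 21 were kept (not Laptm5, Cd53, Cd79a or Cd79b). Of these 2 rose, Cd14 and S100a9, the second well above background on only 3 young arrays. Ptprc, the gene of CD45, differed by 0.07, while S100a8 differed by 2.48 without overlap between the groups (adjusted p = 0.099 by limma). The 17 kept leukocyte markers had a median change of 0.42, from -0.01 to 4.32. Their summed signal, in multiples of the 75th percentile of an array, was 34.2 to 56.7 in aged pools and 26.9 to 39.8 in young pools, of which the Itgam probe alone gave 22.2 to 35.6 and 18.2 to 28.7. Such a sum follows the brightest probes of a list and is no measure of the number of cells. The 13 endothelial markers summed to 175 to 242 in aged pools and 110 to 138 in young pools, with 1 that rose, Ly6c1, and Pecam1, the gene of CD31, at a difference of 0.02. Ly6c1 made up most of this sum, and the other 12 summed to 25.8 to 40.4 in aged pools and 25.7 to 35.8 in young pools, which overlap. The 12 mural and smooth muscle markers summed to 34.5 to 38.0 in aged pools and 37.7 to 45.6 in young pools, with no call. Their median change was -0.23, from -1.03 to 0.12. Of 17 cardiomyocyte markers 15 were kept (not Ryr2 or Ckm) and 1 fell, Pln, which was well above background on only 2 aged arrays. They summed to 9.49 to 14.5 in aged pools and 14.9 to 18.0 in young pools. Without Pln the sums were 9.46 to 14.5 and 14.8 to 18.0, which do not overlap either. The median change of the 15 was -0.47, from -1.04 to 0.27. Mesothelial markers (4 of 9 kept, without Upk3b, Upk1b, Lrrn4, Krt19 and Krt8) summed to 1.14 to 1.66 in aged pools and 0.310 to 0.502 in young pools, with Dmkn higher. The other 3 overlapped, at 0.218 to 0.773 in aged pools and 0.237 to 0.451 in young pools, and none of them passed. Of these, Msln and Krt18 differed by -0.63 and -0.25, and the remaining marker was higher in the aged mean. The 4 kept mesothelial markers had a median change of 0.25, from -0.63 to 3.98. Schwann cell markers (4 of 6 kept, without Sox10 and Kcna1) summed to 3.65 to 4.38 in aged pools and 2.65 to 2.97 in young pools, with Mbp higher, and overlapped without Mbp, at 2.08 to 2.72 in aged pools and 2.19 to 2.49 in young pools.

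Around the members, 152 further genes of the same pathways were tested in 9 lists drawn up by role. In aged cMSCs 5 of them rose, or 3.29%, and 1 fell, or 0.658%, shares near the 2.2% and 0.692% of all genes tested. None of the 10 genes of the Arp2/3 complex, the 10 partners of WAVE and WASP, the 8 partners of Ena/VASP proteins or the 3 genes of serum response factor (SRF) and its coactivators passed, and the medians of these lists lay between -0.08 and 0.09. Of 9 other formins Inf2 rose, a formin that can also sever filaments. It measured 1.33, 1.42, 1.36 and 1.33 in aged replicates 1 to 4, against 0.85, 0.40, 0.70 and 0.21 in young replicates 2 to 5, a difference of 0.82 (SE 0.14, adjusted p = 0.019).

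Among 31 other actin-binding proteins Scin and Marcksl1 rose. Scin encodes scinderin, a severing protein of the gelsolin family, and measured 1.37, 1.52, 1.30 and 1.76 in aged replicates 1 to 4, against 0.49, 0.26, 0.04 and 0.41 in young replicates 2 to 5. No young pool reached an aged one, and Scin was higher by 1.19 in aged cMSCs (SE 0.14, adjusted p = 0.0033). Marcksl1, a MARCKS-like protein of the cell cortex, rose by 1.02 (adjusted p = 0.028). Of 34 other focal adhesion genes Kank1, whose product binds talin at the rim of adhesions, rose by 0.53 (adjusted p = 0.039). Rhod, a small GTPase of endosomes and filopodia counted with 30 small GTPases and their regulators, rose by 0.71 (adjusted p = 0.0091).

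The 1 gene that fell was among the 17 myosin II light chains and their regulators. Myl9, a regulatory light chain of smooth and non-muscle myosin II, measured 3.32, 3.39, 2.94 and 2.81 in aged replicates 1 to 4, against 3.71, 3.94, 3.84 and 3.67 in young replicates 2 to 5. It fell by 0.68 (SE 0.14, adjusted p = 0.048), close to the threshold. Of the 152 genes 8 are also in one of the marker lists, none of them among the 6 named here. Myl9 itself was not put on the list of mural and smooth muscle markers. Among the genes on both that list and the one of Myl9, Cnn1 differed by -1.03 and Myh11 by -0.62. Mylk differed by -0.25, Acta2 by -0.22 and Tagln by 0.01, and none of these passed. Their relation to the fall of Myl9 was not tested.

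Serum response factor binds the CArG box, a motif shared by many actin and adhesion genes. RefSeq promoters (GRCm38.p6, from 250 bases before to 50 bases after a gene start) were matched by symbol for 46 of the 55 members, and 3 of these, or 6.52%, held a CArG box, against 1.81% of all 27025 genes in that table. Actb, Diap1, Tln2, Pxn, Rnd1, Rnd2, Rac1, Rac2 and Rock1 had no promoter matched and were not searched. The 3 boxes are shown, 5′ to 3′ on the strand of the gene with the box in capitals, because they are the only ones found among the 46.
Actg1, chromosome 11, box 90 bases before the start: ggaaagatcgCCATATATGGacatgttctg
Rnd3, chromosome 2, box 100 bases before the start: ctcccaggctCCATAAAAGGggaggaggcg
Vcl, chromosome 14, box 227 bases before the start: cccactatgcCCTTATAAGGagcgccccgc
The box reads the same way on both strands in its consensus, and a match is a description and not a bound site. These 3 genes differed by -0.22, 0.02 and -0.12 between aged and young cMSCs, and none passed. The median over the 43 members without a box was -0.04.

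**Figure D5:**
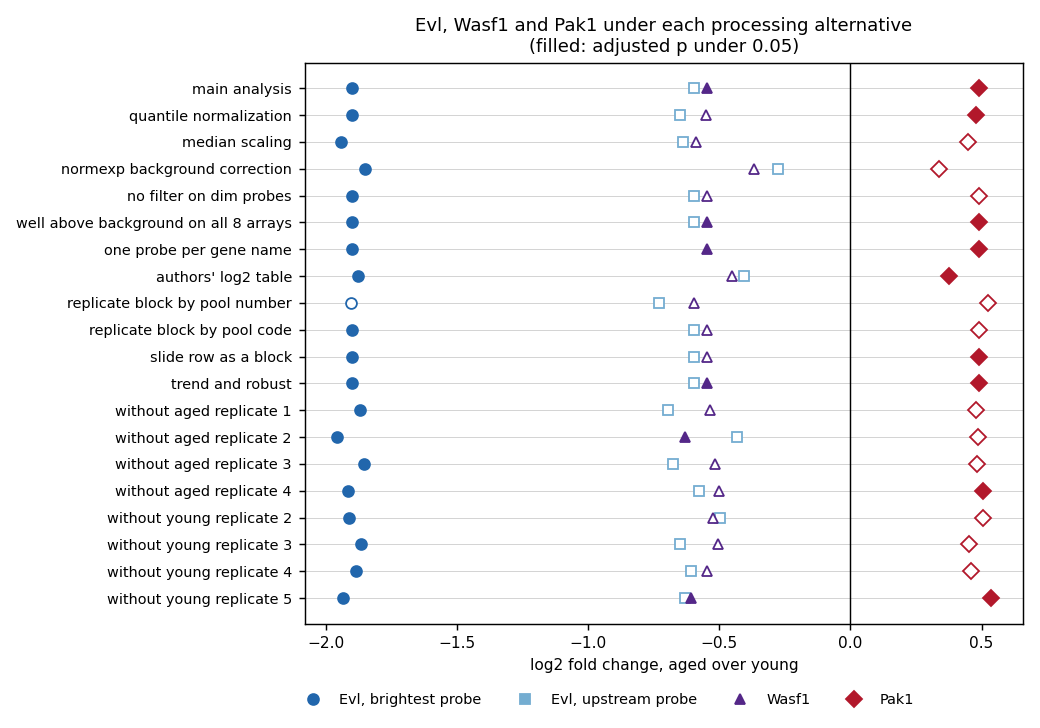
Log2 fold change of aged over young cMSCs for both Evl probes, Wasf1 and Pak1 in the main analysis and under each of the alternatives of processing and with each pool left out, in rows; filled symbols passed an adjusted p of 0.05. The 3′ probe of Evl stays between -1.96 and -1.85 throughout and is open only with the pool number as a block, whereas Wasf1 and Pak1 keep their sign; Wasf1 is filled in 3 of the 11 alternatives of processing and Pak1 in 6, and each with 2 of the 8 pools left out.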

How the data were processed

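Total RNA of sorted cMSCs was hybridized to 8 Agilent arrays of 1 colour on 1 slide, and the members, gene lists and tests were chosen with earlier results of these data known. The authors deposited the output of Agilent Feature Extraction 10.10.1.1, whose processed signal is an intensity after background subtraction, and the software's flags. They also deposited a table of log2 values, quantile-normalized with a median of 8.12 on every array, which served as an alternative. The filter and averaging behind it are not known here.

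From the intensity, control and flagged spots were left out, the 75th percentile of each array was subtracted after taking log2 (in signal, 509 to 793 in aged and 479 to 816 in young arrays), and spots of a probe were averaged. Each gene goes by its brightest kept probe, and levels of different probes are not comparable. Aged and young pools were compared per probe with limma 3.58.1 in R 4.3.3 (6 residual and 2.74 prior degrees of freedom), with Benjamini-Hochberg adjustment, after tests on simulated data. No spot was saturated, and 57.7% to 63.3% of spots per array were well above background. The number of arrays limits the precision.

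Values by pool are given for Evl and for members that passed or exceeded the thresholds of the methods. In other role groups the member with the smallest p and the brightest are described, and in each pathway list up to 3 genes that passed. Tables were made with pandas 2.3.3, numpy 2.4.6 and scipy 1.17.1, and figures with matplotlib 3.10.9. Positions are those of the array files (mm9), and RefSeq tables of GRCm38.p6 gave names and promoters. Alternatives were other scalings, normexp correction (offset 50), other filters, 1 probe per gene, the authors' table, blocks by pool number, pool code and slide row, limma's trend and robust options, and leaving out each pool. Some genes of the marker lists are not reported here.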

Additional observations from a re-analysis of the deposited data

Results flagged for a closer look

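In 112 groups of 4 pools, those of the 55 members at their brightest probe and of the upstream Evl probe, 10 held a pool far from the other 3 by Dixon's gap ratio at the 95% level, which flags about 1 group in 20 by chance. None of these members passed with or without the pool, and all values are normalized log2 signals. Young replicate 5 was the lowest of its group for 4 of them: Actn4 at 3.49, with the others from 3.85 to 3.92, Rhoa at 4.60, with the others from 4.78 to 4.81, Rnd1 at -2.71, with the others from -1.88 to -1.84, and Tns3 at 0.68, with the others from 0.85 to 0.86. Aged replicate 4 was the lowest aged pool for Tln1, at 5.32 against 5.50 to 5.52, and for Diap1, at 3.93 against 4.11 to 4.13. Actb was lowest in aged replicate 2, at 8.56 against 8.83 to 8.86. Rnd2 was highest in aged replicate 1, at -0.65 against -0.85 to -0.83. In young replicates, Flna was highest in replicate 4, at 6.29 against 6.07 to 6.11, and Wasf3 in replicate 3, at -3.04 against -3.77 to -3.66. With 1 pool left out, the difference of Rnd1, 0.65 over all pools, ran from 0.33 without aged replicate 4 to 0.86 without aged replicate 1 (adjusted p = 0.349 to 0.759 over the 8 pools left out in turn), and was 0.44 without young replicate 5. That of Wasf3, -0.23 over all pools, ran from -0.34 without aged replicate 3 to -0.06 without young replicate 3.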

How the results depend on the processing

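The fall of Evl at its 3′ probe was kept under 10 of 11 alternatives and without any 1 pool (-1.96 to -1.86). With the pool number as a replicate block, which only 3 numbers shared by the groups allow, it was -1.91 (adjusted p = 0.062), and 0 members rose and 0 fell. The deviations of pools of the same number had correlations of 0.20, -0.15 and -0.25, within the -0.26 to 0.34 of pools of unlike number. With so few pools this cannot tell whether the samples are paired. With the pool code as a block neither Pak1 nor Wasf1 passed (adjusted p = 0.095 and 0.111 by limma). The upstream probe of Evl did not pass under any alternative (-0.73 to -0.27, and -0.70 to -0.43 with a pool left out). The difference between the Evl probes passed only with normexp (1.58), whose offset shrinks the changes of dim probes, and in the authors' table (1.47). With a pool left out it was 1.17 to 1.52. In place of 1, the number of members that rose was 0 with median scaling, normexp, no filter and the block by pool code, 2 with trend and robust (Capg added), and 0 to 1 with a pool left out. In place of 2, the number that fell was 1 with quantile or median scaling, normexp, no filter, the authors' table and the blocks by pool code and slide row, and 1 to 2 with a pool left out; trend and robust gave 3 (Flnc added). Of the other pathway genes, for which alternatives were chosen after seeing the data, 5 rose and 1 fell. Those that rose were 1 with no filter or the block by pool code, 0 with that by pool number, 8 with trend and robust and 2 to 5 with a pool left out. Those that fell were 0 with median scaling, no filter and each of the 3 blocks, 3 with trend and robust and 0 to 1 with a pool left out. Of the members other than Evl, the 9 with a difference of 0.25 or more kept their sign under all 19 settings, and among the rest 50 of 855 values turned sign, none of them past the threshold. The median of all genes moved by less than 0.1 under every scaling. Was, Rac2, Wasf3, Diap3 and the upstream Evl probe had low signal. The causes of these changes were not tested.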

Other observations

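A Tns3 probe that was not kept, at chr11:8353098-8353157 (mm9), measured -5.36, -6.91, -6.54 and -0.34 in aged replicates 1 to 4, against -7.05, -4.53, -6.14 and -7.09 in young replicates 2 to 5, on the normalized log2 scale. The high value of aged replicate 4 has no counterpart in the 3 kept Tns3 probes on that array, where the brightest measured 0.64, the lowest of all 8 pools. This probe was chosen after its values were seen.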
